A study of Mus musculus with 10 samples.

Results

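The 34 genes described here are markers of endothelial cells, the cells that line blood and lymph vessels. They were chosen by name from textbook knowledge of the vessel wall, with earlier results of these data known. They are the rows of the count tables whose mouse Ensembl identifier maps to the symbol in GENCODE M21 (GRCm38), and make up 34 of 49671 gene identifiers. RNA sequencing was carried out on cells sorted from mouse mammary gland, with 5 populations and 2 libraries of each. Tomato hybrid cells (THC), Tomato basal cells (TBC) and Tomato luminal cells (TLC) carried the treatment label luminal cell ablation, where Tomato is a red fluorescent reporter protein. Luminal cells (LC) and basal cells (BC) had no treatment in their labels, which add WT for replicate 2 of both. The study asks what marked epithelial cells become once luminal cells have been removed. The sources used here do not give the mouse line, the promoter behind the reporter or the ablation, the age of the mice or the antibodies of the sort. Every comparison of a Tomato population with LC or BC contrasts ablation and marking together, and whether both libraries of a population are from different mice is not stated, so p-values measure only the spread between these samples.

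Endothelial cells hold to each other through cadherin and claudin junctions, sense growth factors of the VEGF and angiopoietin families through tyrosine kinase receptors, and keep their identity through transcription factors of the SOX F, ETS and TAL families. In the mammary gland, capillaries surround the ducts and alveoli and lie in the stroma outside the basement membrane of the epithelium. The populations sorted here are epithelial by label. In bulk RNA of this kind, fewer cells of a type and less RNA per cell cannot be told apart.

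Counts assigned to genes came to 2757773 in the shallowest library, THC replicate 1, and to 13685674 in the deepest, LC replicate 2. Levels are given as CPM, counts scaled to library size with TMM factors, and 3 counts corresponded to 1.16 CPM in THC replicate 1 and 0.2025 CPM in THC replicate 2. Reads without a unique alignment made up 43.0% in THC replicate 1 and 14.6% to 22.4% in the other 9 libraries. The epithelial labels were checked against defining markers. The summed level of 7 basal genes was 4212 to 4906 CPM in THC, 11178 to 15069 CPM in TBC, 707 to 1133 CPM in TLC, 90.6 to 166 CPM in LC and 8679 to 13420.5 CPM in BC. The summed level of 8 luminal genes was 2645 to 3533 CPM in THC, 702 to 1012 CPM in TBC, 3976 to 4865 CPM in TLC, 6755 to 8474 CPM in LC and 982 to 1313 CPM in BC. All 34 endothelial markers passed the filter on low counts, and 27 of them reached 10 CPM in at least 1 library.

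Endothelial markers were measured in every population, and the hybrid cells held the most. Their summed level was 1598 and 1587 CPM in THC, 538.5 and 538.2 CPM in TBC, 307 and 339 CPM in TLC, 703 and 281 CPM in LC, and 1050.1 and 335 CPM in BC, for replicates 1 and 2. As means this was 1593 ± 7.80 CPM in THC, 538.4 ± 0.192 CPM in TBC, 323 ± 22.7 CPM in TLC, 492 ± 298 CPM in LC and 692 ± 506 CPM in BC (SD, n = 2 each). The THC mean was 2.96 times that of TBC, 4.93 times that of TLC, 3.24 times that of LC and 2.30 times that of BC. Libraries of a Tomato population lay close together, but those of the unmarked populations did not: replicate 1 held 2.50 times the replicate 2 sum in LC and 3.14 times in BC. Of the 34 markers, 28 were higher in both THC libraries than in all 8 other libraries, an order not counted over all tested genes. Among those 8 libraries, BC replicate 1 was the highest for 29 markers and LC replicate 1 for 3. The lowest of all libraries was LC replicate 2 for 22 markers, TLC replicate 1 for 9 and BC replicate 2 for 3.

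**Figure D1:**
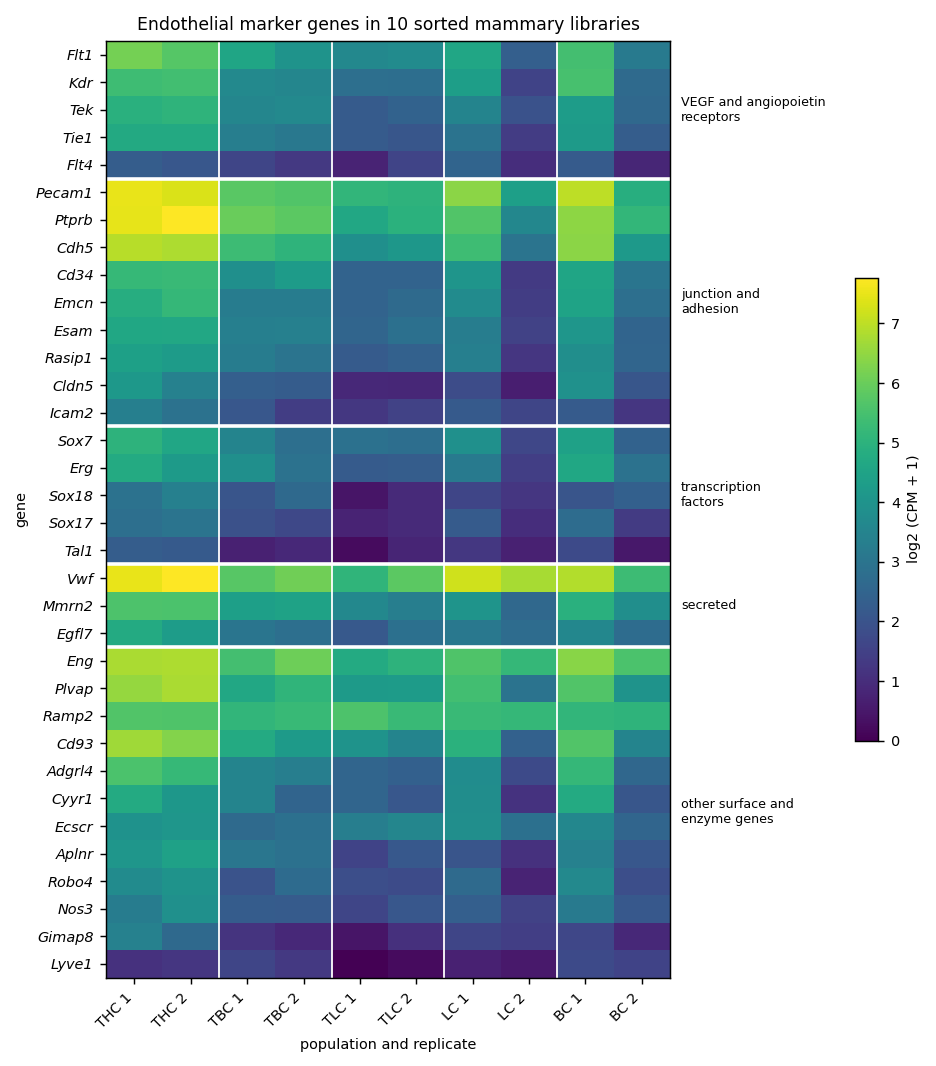
Level of each of the 34 endothelial markers (rows, grouped by role) in each of the 10 libraries (columns), coloured by log2 (CPM + 1). The THC columns are bright for nearly all markers, replicate 1 of LC and of BC stands above replicate 2, and Ramp2 varies little.

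Among the receptors for vascular growth factors, Kdr, the main signalling receptor for VEGF-A, had 40.3 and 41.7 CPM in THC, 11.7 and 10.9 in TBC, 6.14 and 6.01 in TLC, 19.4 and 1.94 in LC, and 44.3 and 5.44 in BC. Flt1, which binds VEGF-A tightly and limits its signal, had 69.3 and 51.8 CPM in THC, 22.6 and 14.7 in TBC, 11.2 and 12.6 in TLC, 23.2 and 4.09 in LC, and 42.7 and 8.25 in BC. Both genes were high in THC and low in TLC, LC replicate 2 and BC replicate 2, and for Kdr the level in BC replicate 1 exceeded both THC libraries. Tek, the angiopoietin receptor also called Tie2, had 29.4 and 32.3 CPM in THC, 10.9 and 11.5 in TBC, 3.68 and 4.46 in TLC, 10.4 and 2.87 in LC, and 18.4 and 5.19 in BC. Its partner Tie1, an orphan receptor kinase that modulates Tek signalling, had 25.2 and 25.6 CPM in THC, 8.999 and 7.696 in TBC, 3.68 and 3.18 in TLC, 6.72 and 1.58 in LC, and 17.6 and 3.91 in BC. Both angiopoietin receptor genes were higher in each THC library than in any library of the other populations. Flt4, the receptor for VEGF-C that is typical of lymphatic vessels, ranged from 0.702 CPM in TLC replicate 1 to 4.66 CPM in LC replicate 1. Its THC libraries, at 3.87 and 3.31 CPM, lay above those of TBC and TLC. LC replicate 1 exceeded both THC libraries, and BC replicate 1, at 3.72 CPM, lay between them.

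Among the 9 junction and adhesion genes, Pecam1 (ENSMUSG00000020717, chromosome 11, 106654217 to 106750628), the adhesion molecule CD31, had 183 and 161 CPM in THC, 53.5 and 49.2 in TBC, 33.9 and 31.3 in TLC, 84.5 and 19.96 in LC, and 125 and 28.4 in BC. Cdh5 (ENSMUSG00000031871, chromosome 8, 104101625 to 104144511) encodes VE-cadherin, which builds the adherens junctions of endothelium, and had 121 and 112 CPM in THC, 38.8 and 32.5 in TBC, 13.5 and 16.3 in TLC, 39.9 and 6.96 in LC, and 85.1 and 17.2 in BC. In both genes THC stood above all other libraries and BC replicate 1 came next. Ptprb, the vascular phosphatase that acts on VE-cadherin and Tek, had 177 and 217 CPM in THC, 62.5 and 55.3 in TBC, 24.4 and 30.03 in TLC, 49.8 and 10.98 in LC, and 87.2 and 34.3 in BC. Emcn, a sialomucin of capillary and venous endothelium, had 27.9 and 35.1 CPM in THC, 8.68 and 8.65 in TBC, 4.56 and 5.37 in TLC, 12.6 and 1.65 in LC, and 21.95 and 6.21 in BC. Cd34, a sialomucin of capillaries that is also found on stem cells and fibroblasts, had 36.03 and 37.6 CPM in THC, 13.6 and 18.3 in TBC, 4.56 and 4.55 in TLC, 15.5 and 1.51 in LC, and 22.5 and 7.06 in BC. These 3 genes again had no overlap between THC and the other libraries, and their lowest values were in LC replicate 2. Esam, an adhesion molecule of endothelial tight junctions, had 23.6 and 24.4 CPM in THC, 9.31 and 9.38 in TBC, 4.74 and 6.28 in TLC, 8.89 and 1.87 in LC, and 15.9 and 4.68 in BC. Rasip1, a Ras-interacting protein needed for vessels to form a lumen, had 20.5 and 18.02 CPM in THC, 8.53 and 6.96 in TBC, 3.68 and 4.37 in TLC, 9.32 and 1.36 in LC, and 13.3 and 4.85 in BC. Cldn5, the claudin of endothelial tight junctions, had 16.7 and 9.58 CPM in THC, 4.105 and 3.81 in TBC, 0.877 and 0.819 in TLC, 2.49 and 0.574 in LC, and 14.1 and 3.23 in BC. For Cldn5, BC replicate 1 lay between the THC libraries, and both TLC libraries and LC replicate 2 were below 1 CPM. Icam2, a ligand of leukocyte integrins, stayed between 1.36 CPM in BC replicate 2 and 9.30 CPM in THC replicate 1. Rasip1 shares 654 exon bases with Izumo1 on the same strand, and whether counting used strand is not stated.

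Transcription factors of endothelium were measured at low levels. Sox7, one of the SOX F factors of vessel development, had 31.4 and 23.1 CPM in THC, 10.3 and 6.08 in TBC, 6.49 and 6.01 in TLC, 13.9 and 2.15 in LC, and 20.6 and 4.42 in BC. Sox18, another of that family, had 6.59 and 9.45 CPM in THC, 3.16 and 5.28 in TBC, 0.351 and 0.90998 in TLC, 2.06 and 1.36 in LC, and 3.14 and 4.17 in BC. Erg, the ETS factor that maintains endothelial identity, had 25.96 and 17.95 CPM in THC, 13.7 and 6.67 in TBC, 3.68 and 3.91 in TLC, 8.24 and 1.72 in LC, and 23.9 and 6.63 in BC. Sox18 differed from Sox7 and Erg in that its second TBC and BC libraries exceeded the first, while Erg in BC replicate 1 lay between the THC libraries. Sox17 ranged from 0.702 CPM in TLC replicate 1 to 6.95 CPM in THC replicate 2. Tal1, a helix-loop-helix factor shared by blood and endothelial precursors, ranged from 0.175 CPM in TLC replicate 1 to 3.87 CPM in THC replicate 1. Its TLC replicate 1 value rested on 1 count.

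Of the secreted and matrix proteins, Egfl7 (ENSMUSG00000026921, chromosome 2, 26580014 to 26593120), a matrix protein released by endothelium during vessel growth, had 25.96 and 18.6 CPM in THC, 7.104 and 6.08 in TBC, 3.51 and 6.28 in TLC, 7.59 and 5.74 in LC, and 10.98 and 5.697 in BC. Vwf, the clotting factor stored in endothelial granules and in platelets, had 182 and 213 CPM in THC, 52.4 and 66.8 in TBC, 32.6 and 55.7 in TLC, 147 and 107 in LC, and 116 and 39.03 in BC. Mmrn2, a matrix glycoprotein that binds Cd93, had 47.3 and 46.6 CPM in THC, 20.05 and 21.1 in TBC, 11.2 and 8.92 in TLC, 15.1 and 5.17 in LC, and 29.4 and 13.3 in BC. All 3 were highest in the THC libraries. For Vwf both LC libraries exceeded those of TLC and TBC, an order shared by Gimap8, and 1497 counts stood behind the LC replicate 2 value of Vwf.

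Among the remaining receptors and surface proteins, Eng (ENSMUSG00000026814, chromosome 2, 32646595 to 32682669), a co-receptor for BMP9 and TGF-beta, had 109.6 and 112 CPM in THC, 42.5 and 65.4 in TBC, 26.1 and 31.4 in TLC, 48.9 and 35.5 in LC, and 83.3 and 46.1 in BC. Aplnr (ENSMUSG00000044338, chromosome 2, 85136225 to 85139923), the receptor for apelin, had 15.9 and 20.99 CPM in THC, 7.26 and 6.38 in TBC, 1.93 and 3.37 in TLC, 3.14 and 1.15 in LC, and 9.603 and 3.32 in BC. Cd93, a lectin-like receptor of angiogenic vessels, had 99.9 and 78.5 CPM in THC, 26.05 and 17.9 in TBC, 14.7 and 10.5 in TLC, 30.4 and 4.38 in LC, and 49.8 and 10.4 in BC. Eng differed less between the unmarked libraries than Cd93, which stood at 4.38 CPM in LC replicate 2. Plvap, the protein of diaphragms across endothelial fenestrae and caveolae, had 92.2 and 108 CPM in THC, 24.3 and 32.9 in TBC, 17.9 and 18.4 in TLC, 41.9 and 6.75 in LC, and 49.8 and 14.9 in BC. Adgrl4, an adhesion G protein-coupled receptor of endothelium, had 46.9 and 35.9 CPM in THC, 10.3 and 9.09 in TBC, 4.74 and 4.19 in TLC, 12.7 and 2.37 in LC, and 35.1 and 5.102 in BC. Robo4, a guidance receptor that stabilises vessels, had 12.4 and 14.98 CPM in THC, 2.9996 and 5.57 in TBC, 2.63 and 2.46 in TLC, 5.42 and 0.718 in LC, and 11.6 and 2.64 in BC. These 3 genes had the same order, with THC above all others and BC replicate 1 the next. Ramp2, which turns the calcitonin receptor-like receptor into a receptor for adrenomedullin, had 49.2 and 48.1 CPM in THC, 33.5 and 36.8 in TBC, 47.01 and 37.6 in TLC, 37.2 and 35.1 in LC, and 33.5 and 31.9 in BC. It was the flattest of the markers, with THC only slightly above TLC replicate 1. Ramp2 shares 1103 exon bases with Vps25 on the same strand, and how reads in those bases were assigned is not stated. Ecscr, an endothelial surface protein of filopodia, had 14.7 and 16.1 CPM in THC, 5.37 and 6.304 in TBC, 8.95 and 10.9 in TLC, 13.2 and 6.25 in LC, and 10.98 and 4.76 in BC. Cyyr1, a small membrane protein, had 25.96 and 16.4 CPM in THC, 10.4 and 4.62 in TBC, 4.74 and 3.28 in TLC, 13.1 and 1.22 in LC, and 25.7 and 3.23 in BC. THC stood highest for Ecscr, while for Cyyr1 BC replicate 1 lay between the THC libraries. Nos3, endothelial nitric oxide synthase, had 8.52 and 14.04 CPM in THC, 3.79 and 3.74 in TBC, 2.11 and 3.28 in TLC, 4.12 and 1.87 in LC, and 8.04 and 3.401 in BC. It shares 1040 exon bases with an antisense gene, whose reads cannot be told apart without strand. Gimap8 (ENSMUSG00000064262, chromosome 6, 48647234 to 48660875), a GTPase of the immunity-associated family that lymphocytes also express, had 9.68 and 5.26 CPM in THC, 1.26 and 0.8796 in TBC, 0.351 and 1.09 in TLC, 2.06 and 1.72 in LC, and 2.16 and 0.8503 in BC. Lyve1, the hyaluronan receptor of lymphatic endothelium and of some macrophages, had 1.16 and 1.35 CPM in THC, 2.05 and 1.47 in TBC, 0 and 0.182 in TLC, 0.6504 and 0.431 in LC, and 2.35 and 1.96 in BC. Gimap8 had its highest values in THC, whereas Lyve1 had its highest in TBC and BC and 0 counts in TLC replicate 1, where 3 counts would be 0.526 CPM.

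Levels were set against each other after division by exon length. In THC, Plvap was highest at 50.4 ± 5.69 CPM per kb, followed by Cdh5 at 27.8 ± 1.52, Pecam1 at 27.6 ± 2.57 and Eng at 27.4 ± 0.46 CPM per kb (SD, n = 2 each), of which the last 3 did not differ beyond their spread. In TLC, Ramp2 was highest at 12.8 ± 2.02 CPM per kb, above Plvap at 9.13 ± 0.17 and Eng at 7.11 ± 0.92 CPM per kb (SD, n = 2 each). In LC the highest were Plvap at 12.3 ± 12.5 and Ramp2 at 10.9 ± 0.44 CPM per kb, and in BC Plvap at 16.3 ± 12.4 and Eng at 15.98 ± 6.50 CPM per kb (SD, n = 2 each). The SD of Plvap in LC was as large as its mean.

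The promoters of Egfl7, Eng and Tie1 are shown because Egfl7 rose in THC against TBC, TLC and LC, Eng against TLC and LC and Tie1 against LC alone, and because their windows hold the ETS core that factors such as Erg recognise. Windows of 300 bases, 250 before to 50 after the start in RefSeq (GRCm38.p6), were at hand for 17 of the 34 markers, with 23 windows in all, and for Egfl7, which had 3 windows, the first one listed is printed. Capitals mark AGGAAG or its reverse complement CTTCCT, and the sequences read 5′ to 3′ on the gene's strand.
Egfl7, chr2:26580833-26581132, plus strand: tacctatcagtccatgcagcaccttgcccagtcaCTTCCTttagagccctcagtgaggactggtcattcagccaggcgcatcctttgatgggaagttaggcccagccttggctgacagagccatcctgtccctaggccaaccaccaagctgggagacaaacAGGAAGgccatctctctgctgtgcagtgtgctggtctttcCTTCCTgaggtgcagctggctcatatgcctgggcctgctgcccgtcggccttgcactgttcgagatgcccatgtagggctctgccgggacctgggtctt
Eng, chr2:32646345-32646644, plus strand: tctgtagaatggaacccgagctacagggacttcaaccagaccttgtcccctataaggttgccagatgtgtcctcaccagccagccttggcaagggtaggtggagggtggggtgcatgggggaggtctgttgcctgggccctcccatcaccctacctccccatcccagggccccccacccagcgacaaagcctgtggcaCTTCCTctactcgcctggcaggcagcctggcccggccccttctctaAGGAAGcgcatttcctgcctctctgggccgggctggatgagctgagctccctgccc
Tie1, chr4:118489800-118490099, minus strand: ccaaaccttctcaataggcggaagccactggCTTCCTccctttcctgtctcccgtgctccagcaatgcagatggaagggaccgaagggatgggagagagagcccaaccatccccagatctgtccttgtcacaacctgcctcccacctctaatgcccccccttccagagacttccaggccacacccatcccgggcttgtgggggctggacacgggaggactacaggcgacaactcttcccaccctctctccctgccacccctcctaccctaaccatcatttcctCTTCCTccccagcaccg
The Egfl7 window holds 3 such matches, the Eng window 2 and the Tie1 window 2. Searched on both strands, AGGAAG was found in a window of 12 of the 17 markers (70.6%), against 38.4% of all 27025 genes with windows, and on the gene's strand alone in 35.3% of the markers against 22.3% of all genes. The SOX letters ACAATG and ACAAAG were found on either strand in 29.4% of the markers and 31.7% of all genes, and the GATA letters AGATAA in 17.6% and 12.7%. The forkhead letters GTAAACA were found in none of the 17 markers and in 4.05% of all genes. These searches do not overlap each other in letters, and a match is no evidence of binding.

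THC and TBC were compared to see which endothelial markers set hybrid cells apart from basal cells of the same treatment. Egfl7 and Gimap8 rose in THC, and the other 32 markers did not pass the test although nearly all had higher values. Of 34 markers 33 were higher in both THC libraries than in both TBC libraries, where 26.2% of all tested genes had that order, and Lyve1 was the exception. The median log2 fold change of the markers was 1.64, against 0.03 over all 19757 genes tested. Egfl7 had a log2 fold change of 1.74 ± 0.41 (SE), adjusted p = 0.042, and Gimap8 one of 2.77 ± 0.64 (SE), adjusted p = 0.037, by the quasi-likelihood test of edgeR after Benjamini-Hochberg adjustment. The 2 calls compare with 2.57% of all tested genes called higher, and no marker was called lower. At an unadjusted p under 0.05 the test had 19 markers higher and 0 lower. Of all 19757 genes, 3380 had such a p in either direction. Cdh5, with a log2 fold change of 1.71 and an adjusted p of 0.36, and Vwf, with 1.73 and an adjusted p of 0.078, were among those that did not pass. DESeq2 called 5 markers, edgeR without the low-count filter 14 and with the stricter filter 1. Over all genes these settings called 815 of 19757, 1083 of 34928 and 517 of 14299 higher, against 508 by the main test. Under all alternative settings, among them each THC and TBC library left out, the median stayed at 1.43 to 1.68.

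THC and TLC were compared for the same question on the luminal side. Egfl7, Eng, Sox18, Aplnr and Gimap8 rose in THC. All 34 markers were higher in both THC libraries than in both TLC libraries, where 21.7% of all tested genes had that order. The markers had a median log2 fold change of 2.48, against 0.02 over all genes tested. Sox18 had a log2 fold change of 3.56 ± 0.57 (SE), adjusted p = 0.013, and Eng one of 1.94 ± 0.32 (SE), adjusted p = 0.014. For Gimap8 it was 3.17 ± 0.67 (SE), adjusted p = 0.040, for Aplnr 2.77 ± 0.58 (SE), adjusted p = 0.041, and for Egfl7 2.14 ± 0.42 (SE), adjusted p = 0.031. The 5 calls compare with 1.52% of all tested genes called higher, and 30 markers had an unadjusted p under 0.05, all higher. Of all 19757 genes, 2394 had such a p in either direction. Cldn5 (3.90, adjusted p = 0.0505) and Mmrn2 (2.23, adjusted p = 0.053) fell just outside the threshold. DESeq2 called 19 markers, edgeR without the low-count filter 19 and with the stricter filter 3. Of all genes these settings called 671 of 19757, 992 of 34928 and 275 of 14299 higher, against 300 by the main test. The median stayed at 2.44 to 2.59 under all alternative settings, among them each THC and TLC library left out.

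THC and LC were compared across treatment as well as population. In THC 10 markers rose, namely the receptors Tek, Tie1, Eng and Aplnr, the junction genes Cldn5 and Ptprb, the matrix genes Egfl7 and Mmrn2, the transcription factor Sox18 and the enzyme Nos3. Of 34 markers 33 were higher in both THC libraries than in both LC libraries, where 28.9% of all tested genes had that order, and Flt4 was the exception. The log2 fold change was 3.15 ± 0.59 (SE), adjusted p = 0.0057 for Aplnr and 1.40 ± 0.31 (SE), adjusted p = 0.013 for Eng. It was 3.11 ± 0.78 (SE), adjusted p = 0.025 for Cldn5 and 2.71 ± 0.66 (SE), adjusted p = 0.032 for Ptprb. The calls thus took in receptors and junction proteins alike. For Tie1 it was 2.65 ± 0.73 (SE), adjusted p = 0.043, and for Tek 2.24 ± 0.64 (SE), adjusted p = 0.045. Values were 2.27 ± 0.51 (SE), adjusted p = 0.013 for Sox18 and 2.23 ± 0.48 (SE), adjusted p = 0.014 for Mmrn2. Egfl7 had 1.73 ± 0.41 (SE), adjusted p = 0.018, and Nos3 had 1.97 ± 0.53 (SE), adjusted p = 0.032. Vwf (0.64, adjusted p = 0.41), Ramp2 (0.43, adjusted p = 0.21) and Flt4 (0.35, adjusted p = 0.83) had the smallest values and did not pass. Over all markers the median was 2.01, against 0.01 over all genes tested. The 10 calls compare with 8.91% of all tested genes called higher, and 26 markers had an unadjusted p under 0.05, all higher. Of all 19757 genes, 5245 had such a p in either direction. DESeq2 called 16 markers and limma-voom 18, where they called 1959 and 1843 of all genes higher, against 1760 by the main test. This comparison depended on LC replicate 1: without it the median was 3.63, and over all alternative settings it was 1.32 to 3.63.

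THC and BC were compared in the same way, and here Gimap8 was the single marker called. Its log2 fold change was 2.35 ± 0.64 (SE), adjusted p = 0.046. Markers higher in both THC libraries than in both BC libraries numbered 28 of 34, where 27.9% of all tested genes had that order. The median was 1.16 for the markers, against 0.01 over all genes tested. The single call compares with 5.0% of all tested genes called higher, and 12 markers had an unadjusted p under 0.05, all higher. Of all 19757 genes, 4856 had such a p in either direction. Pecam1 (1.18, adjusted p = 0.37), Cdh5 (1.21, adjusted p = 0.42) and Kdr (0.76, adjusted p = 0.71) did not pass. The call of Gimap8 was lost with RLE factors (adjusted p = 0.051) and with the stricter filter (adjusted p = 0.062), while DESeq2 called 4 markers, limma-voom 3 and edgeR without the low-count filter 9. The last 3 settings called 1273 of 19757, 885 of 19757 and 1619 of 34928 genes higher, against 987 by the main test. Without BC replicate 1 the median was 2.36, and over all alternative settings it was 0.53 to 2.36.

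**Figure D2:**
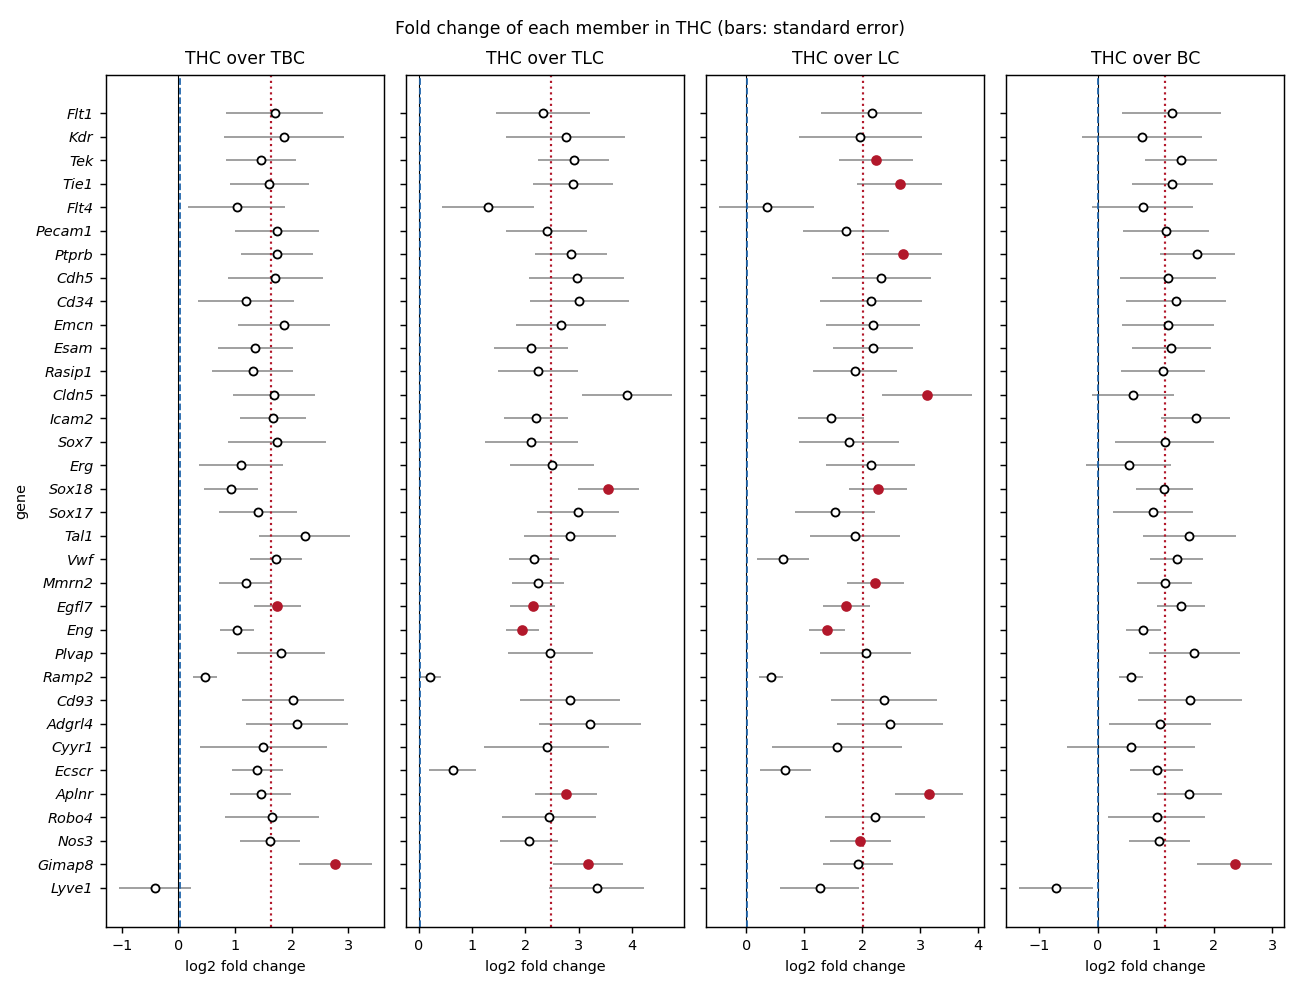
Log2 fold change of each endothelial marker (rows) in THC over TBC, TLC, LC and BC (panels), with bars of 1 SE; filled red points passed edgeR's test at an adjusted p under 0.05, the red dotted line is the median of the markers and the blue dashed line that of all genes tested. Nearly all points lie right of 0, with 2 called over TBC, 5 over TLC, 10 over LC and 1 over BC.

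The library numbers in the labels fall into 2 runs, 44 to 48 and 80 to 84, each with 1 library of every population. Within a run the THC library exceeded the TBC library for 33 markers in the first run and 33 in the second, with median log2 differences of 1.45 and 1.68. For THC against TLC the medians were 2.64 and 2.30, with all 34 markers higher in both runs. For THC against LC they were 1.27 and 3.35, and for THC against BC 0.56 and 2.35. The medians were thus positive in both runs for all 4 comparisons of THC, while their size against LC and BC differed between runs.

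Tomato basal cells and unmarked basal cells gave no stable order. The markers had a median log2 fold change of -0.38 in TBC against BC, against -0.03 over all genes tested. No marker separated the 2 TBC from the 2 BC libraries in either direction, where 41.5% of all tested genes did so one way or the other. Within the first run TBC was higher for 1 of 34 markers (median -0.94), and within the second run for 33 of 34 (median 0.67). By edgeR's quasi-likelihood test 0 markers were called, as were 0% of all tested genes. An unadjusted p under 0.05 was seen for 0 markers and for 1725 of all 19757 genes. DESeq2 and limma-voom also called 0 markers. Without BC replicate 1 the median was 0.80.

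Tomato luminal cells and unmarked luminal cells differed in the same unsteady way. The median was -0.51 in TLC against LC, against 0.00 over all genes tested. Both TLC libraries lay below both LC libraries for 7 of 34 markers, where 24.9% of all tested genes had that order. Vwf was 1 of them, with 32.6 and 55.7 CPM in TLC and 147 and 107 in LC and a log2 fold change of -1.52 ± 0.46 (SE), adjusted p = 0.075, which did not pass. Within the first run TLC was higher for 1 of 34 markers (median -1.26), and within the second for 27 of 34 (median 0.82). By edgeR's test 0 markers were called, against 8.22% of all tested genes in either direction. Vwf and Lyve1 had an unadjusted p under 0.05, both lower, as had 4389 of all 19757 genes in either direction. DESeq2 called 1 marker, Vwf, limma-voom 0 and edgeR without the low-count filter 1. Over all genes these settings called 1221, 846 and 1394 higher and 960, 838 and 1167 lower. Without LC replicate 1 the median was 0.92.

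**Figure D3:**
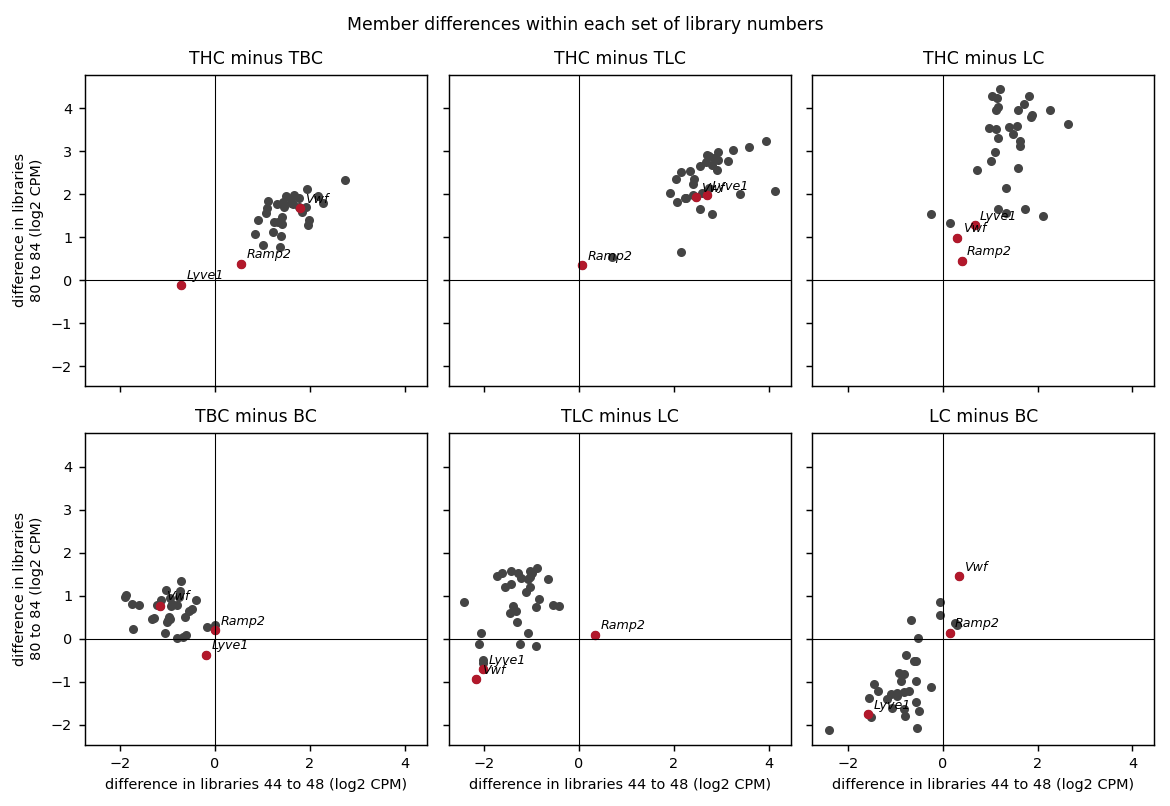
Difference in log2 CPM of each endothelial marker between a pair of populations, within libraries 44 to 48 (horizontal) and within libraries 80 to 84 (vertical), for 6 comparisons; each point is 1 marker, and Vwf, Ramp2 and Lyve1 are named in red. In the THC panels nearly all points lie in the upper right of the panel, while in TBC minus BC and TLC minus LC most points lie left of 0 and above 0.

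LC and BC were compared to see how the markers divide between the unmarked lineages. Cldn5 and Lyve1 fell in LC, and the other 32 markers did not pass. Cldn5 had 2.49 and 0.574 CPM in LC and 14.1 and 3.23 in BC, a log2 fold change of -2.51 ± 0.77 (SE), adjusted p = 0.036. Lyve1 had 0.6504 and 0.431 CPM in LC and 2.35 and 1.96 in BC, a log2 fold change of -1.98 ± 0.65 (SE), adjusted p = 0.046, from 6 counts in each LC library. The 2 calls compare with 12.5% of all tested genes called lower in LC. Both LC libraries lay below both BC libraries for 4 of 34 markers, where 30.3% of all tested genes had that order. The median was -0.85, against -0.04 over all genes tested, and 26 markers were lower in LC within both runs. Without LC replicate 1 the median was -2.33, and without BC replicate 1 it turned to 0.27. Limma-voom and the stricter filter gave 1 call each, and edgeR without the low-count filter 6. Of all genes they called 2644 of 19757, 2147 of 14299 and 2891 of 34928 lower, against 2468 by the main test.

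How closely the markers moved with each other was described by correlation. Over the 10 libraries, Pearson's r of a marker's log2 CPM with the mean of the other 33 was above 0.9 for 24 markers, between 0.7 and 0.9 for 6 and lower for 4. It was 0.996 for Cdh5, 0.989 for Tek, 0.984 for Tie1 and 0.981 for Pecam1, and 0.699 for Vwf, 0.641 for Ecscr, 0.561 for Lyve1 and 0.399 for Ramp2. These are descriptions over libraries that share depth and scaling factors across genes. They do not check that the group is endothelial, since Rgs5, typical of pericytes, had r of 0.98 with the markers' mean. Outside the markers, 0.669% of tested genes had r above 0.9. Vwf and Ecscr were nonetheless highest in both THC libraries, and the value for Sox18, 0.742, was close to that of Vwf.

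Levels divided by Pecam1 showed which markers kept their proportion. The Cdh5 level over that of Pecam1 was 0.66 and 0.699 in THC, 0.73 and 0.66 in TBC, 0.399 and 0.520 in TLC, 0.47 and 0.35 in LC, and 0.679 and 0.605 in BC. The ratio for Plvap lay between 0.34 and 0.67 in all libraries. Ramp2 was at 0.268 and 0.2996 of Pecam1 in THC, against 1.39 and 1.201 in TLC and 0.44 and 1.76 in LC. Vwf was at 0.99 and 1.33 of Pecam1 in THC, against 1.74 and 5.38 in LC. For Eng the ratio was 0.598 and 0.699 in THC, against 0.58 and 1.78 in LC and 0.67 and 1.62 in BC. All 3 exceeded Pecam1 in LC replicate 2, where Pecam1 was lowest.

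**Figure D4:**
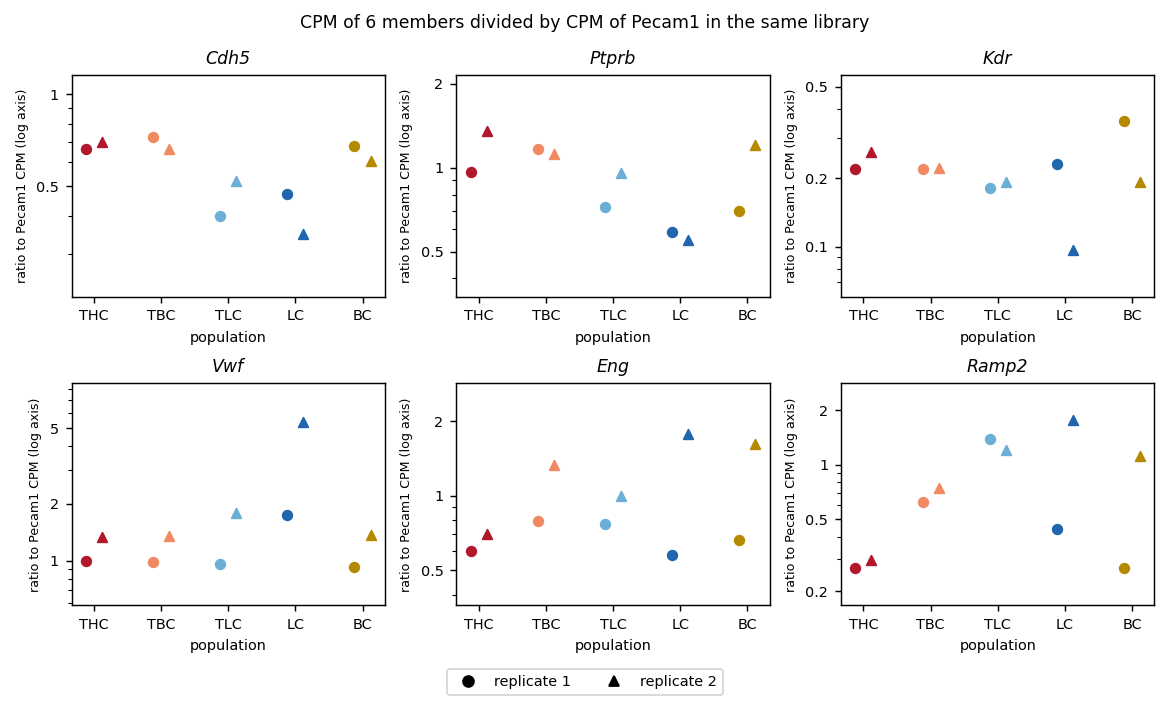
CPM of 6 endothelial markers divided by that of Pecam1 in the same library (log axes that differ between panels), by population, with a circle for replicate 1 and a triangle for replicate 2. Cdh5 stays between 0.35 and 0.73, while Vwf reaches 5.38 and Ramp2 1.76 in LC replicate 2.

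A second list of 29 endothelial genes outside the 34 was described for comparison. Its summed level was 1658 and 1383 CPM in THC, 816 and 691 CPM in TBC, 588 and 745 CPM in TLC, 1220.3 and 515 CPM in LC, and 1441 and 610.1 CPM in BC, so that BC replicate 1 lay between the THC libraries. In THC, 2 of the 29 rose against TBC, 4 against TLC and 4 against BC, and 9 rose and 1 fell against LC. Both genes that rose against TBC, Podxl and the VEGF co-receptor Nrp1, also rose against BC, and both were higher in LC than in BC (3.39, adjusted p = 0.00011, and 1.34, adjusted p = 0.014). Gja5, a connexin of arterial endothelium, had 14.7 and 15.8 CPM in THC, 6.31 and 5.06 in TBC, 2.11 and 1.27 in TLC, 1.95 and 1.79 in LC, and 3.92 and 3.74 in BC and rose against TLC (3.22, adjusted p = 0.0046), LC (3.03, adjusted p = 0.00074) and BC (1.998, adjusted p = 0.011). Stab1, a scavenger receptor of sinusoidal endothelium and macrophages, had 22.5 and 30.8 CPM in THC, 10.1 and 11.3 in TBC, 7.37 and 9.92 in TLC, 5.203 and 3.45 in LC, and 9.995 and 5.53 in BC. Clec14a, a lectin-like receptor related to Cd93, had 10.1 and 17.5 CPM in THC, 4.42 and 5.72 in TBC, 0.877 and 3.28 in TLC, 1.84 and 1.01 in LC, and 5.88 and 2.72 in BC. These 3 were highest in both THC libraries, but Podxl, a sialomucin that epithelia also carry, was highest in LC, with 118 and 189 CPM in THC, 26.996 and 28.4 in TBC, 85.6 and 98.9 in TLC, 478 and 292 in LC, and 49.6 and 24.7 in BC.

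Ligands of the receptors above were described from a list of their own. Of 12 ligand genes 9 were tested, and none passed edgeR's test in THC against TBC, with 2 higher and 1 lower at an unadjusted p under 0.05. In THC, 1 of 9 rose against TLC, 1 rose against LC and 1 fell against BC. Of all 19757 tested genes 1.52% rose against TLC, 8.91% rose against LC and 537 fell against BC. Against TBC 3380 had an unadjusted p under 0.05 in either direction. Vegfa, the ligand of Kdr and Flt1, had 107 and 109 CPM in THC, 130.2 and 92.9 in TBC, 60.2 and 74.4 in TLC, 184 and 204 in LC, and 292 and 135 in BC. Vegfc, the ligand of Flt4, had 7.36 and 9.72 CPM in THC, 11.998 and 12.8 in TBC, 2.28 and 1.82 in TLC, 5.64 and 4.81 in LC, and 12.3 and 11.9 in BC and rose in THC against TLC (2.10, adjusted p = 0.017). Pgf, a ligand of Flt1, had 12.8 and 9.85 CPM in THC, 21.2 and 29.1 in TBC, 10.7 and 8.64 in TLC, 0.6504 and 1.72 in LC, and 20.6 and 20.1 in BC, and Angpt1, the activating ligand of Tek, had 13.6 and 22.2 CPM in THC, 6.63 and 5.06 in TBC, 4.91 and 12.6 in TLC, 43.9 and 33.2 in LC, and 13.1 and 4.17 in BC. In TLC against LC, Vegfa (-1.53, adjusted p = 0.015), Vegfc (-1.36, adjusted p = 0.036) and Angpt1 (-2.10, adjusted p = 0.043) fell and Pgf (2.94, adjusted p = 0.0021) rose. Angpt2, a context-dependent ligand of Tek, had 8.91 and 14.6 CPM in THC, 3.63 and 5.72 in TBC, 2.98 and 6.46 in TLC, 6.29 and 4.24 in LC, and 9.21 and 2.98 in BC, with positive log2 fold changes in THC against all 4 populations that did not pass (1.04 to 1.34, adjusted p = 0.20 to 0.37). Gdf2, which encodes the Eng ligand BMP9, had 0 counts in all 10 libraries.

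Markers of other cells of the gland were measured in the same libraries. The summed level of 10 pericyte genes, the mural cells of capillaries, was 520.3 and 392 CPM in THC, 302 and 187 CPM in TBC, 352 and 419 CPM in TLC, 345 and 299 CPM in LC, and 373 and 173 CPM in BC. Notch3, which luminal cells also express, made up 141 and 155 CPM of that sum in THC and 247 and 358 CPM in TLC. Among pericyte genes Pdgfrb, the platelet-derived growth factor receptor, rose in THC against TLC (2.85, adjusted p = 0.022) and LC (3.25, adjusted p = 0.0024), and 3 of 9 tested rose in each of these comparisons. Against TBC (0.58, adjusted p = 0.57) and BC (-0.03, adjusted p = 0.97) it did not pass, and BC replicate 2 held more than either THC library. There 1 of 9 pericyte genes rose, Notch3 in both. Log2 fold changes in THC were positive for 7 of the 9 against TBC (median 1.43) and 7 against BC (median 1.27). Mcam had -0.36 (adjusted p = 0.83) against TBC and -0.41 (adjusted p = 0.73) against BC. The summed level of 10 fibroblast genes was 936 and 1974 CPM in THC, 383 and 681 CPM in TBC, 168 and 354 CPM in TLC, 322 and 291 CPM in LC, and 321 and 312 CPM in BC. Col1a1, a chain of collagen I, had 244 and 719.9 CPM in THC, 78.5 and 129.7 in TBC, 30.3 and 132 in TLC, 7.805 and 3.66 in LC, and 20.2 and 34.6 in BC. Col1a2, the other chain, had 177 and 426 CPM in THC, 73.4 and 102 in TBC, 18.8 and 70.3 in TLC, 6.18 and 1.36 in LC, and 57.03 and 41.4 in BC. Both chains were highest in THC, as were Col3a1, Lum, Dpt, Mfap5 and Pi16, whereas Dcn, Fbln1 and Pdgfra were not. Fbln1, a matrix glycoprotein, had 87.9 and 59.1 CPM in THC, 75.9 and 91.8 in TBC, 64.4 and 19.5 in TLC, 2.38 and 0.861 in LC, and 25.7 and 71.5 in BC, and Pdgfra, a growth factor receptor, had 24.8 and 31.05 CPM in THC, 29.2 and 37.5 in TBC, 14.4 and 11.6 in TLC, 19.1 and 7.897 in LC, and 69.8 and 51.4 in BC. Log2 fold changes in THC were positive for 7 of the 10 genes against TBC, 10 against TLC, 9 against LC and 9 against BC. Pdgfra had -0.25 (adjusted p = 0.80) against TBC and -1.10 (adjusted p = 0.091) against BC. Of the 10 fibroblast genes none passed edgeR's test in THC against TBC or TLC, where 6 and 9 were higher at an unadjusted p under 0.05, and 3 rose against BC and 7 rose against LC. The summed level of 15 immune genes was 222 and 90.8 CPM in THC, 72.9 and 39.4 CPM in TBC, 40.3 and 45.7 CPM in TLC, 37.8 and 32.4 CPM in LC, and 62.9 and 29.3 CPM in BC. Of 12 immune genes tested, none passed in THC against TBC or TLC, where 4 and 6 were higher at an unadjusted p under 0.05, and 3 rose against BC and 6 rose against LC. Ptprc, the pan-leukocyte antigen CD45, had 22.1 and 12.1 CPM in THC, 5.37 and 2.13 in TBC, 1.05 and 2.91 in TLC, 2.602 and 0.7897 in LC, and 5.49 and 0.935 in BC. Log2 fold changes in THC were positive for 11 of the 12 against TBC, 11 against TLC, 9 against LC and 10 against BC. Against BC, Fcer1g (3.78, adjusted p = 0.0099) and Adgre1 (3.91, adjusted p = 0.021) rose. Cd68 (-0.61, adjusted p = 0.42) and Cd79a (-1.47, adjusted p = 0.42) were negative there and did not pass. Erythrocyte and platelet genes summed to 9.09 to 19.6 CPM over all libraries. Fibroblast and immune sums were thus highest in THC, as the endothelial sum was. Most of the fibroblast sum in THC came from Col1a1, Col1a2 and Col3a1, the last with 320 and 541 CPM. Lyz2 made up 106 and 28.1 CPM of the immune sum in THC. The pericyte mean was also highest in THC, at 456 CPM against 386 CPM in TLC, although libraries of these populations overlapped. The part of these lists in the endothelial differences was not tested.

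**Figure D5:**
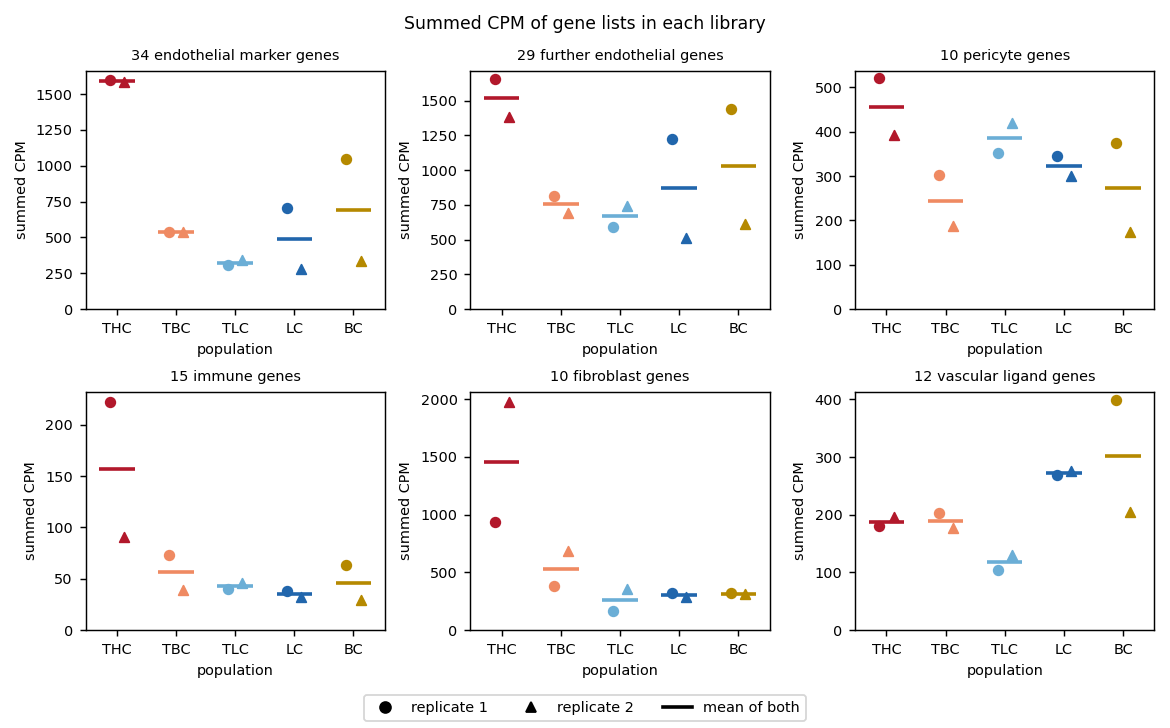
Summed CPM of the 34 endothelial markers and of 5 further gene lists in each library, by population, with a circle for replicate 1, a triangle for replicate 2 and a line at their mean; axes start at 0 and differ between panels. The endothelial markers stand at 1598 and 1587 CPM in THC, and the fibroblast and immune sums are highest in THC too, whereas the vascular ligand sum is not.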

How the data were processed

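RNA of sorted mouse mammary cells was extracted with the Qiagen RNeasy Micro kit, made into libraries with the NuGen Ovation Solo system and sequenced on an Illumina NovaSeq, per the labels' protocols. The deposited files hold raw counts per Ensembl gene, 1 table for each of the 10 libraries, made with STAR and HTSeq on GRCm38 (mm10) per the submitters' processing notes. The sources used here do not give tool versions, the authors' annotation or the strand setting, so reads of overlapping genes could not be told apart. The HTSeq summary entries were removed first (per library 14.6% to 43.0% of reads not uniquely aligned, 12.6% to 30.8% outside features and 2.71% to 3.48% ambiguous).

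Identifiers were matched to symbols and positions in GENCODE M21 (49412 of 49671 matched). After edgeR's filterByExpr, 19757 genes were tested with the quasi-likelihood F-test (robust fit, TMM factors) on all 10 libraries, with 1 coefficient per population and 5 residual degrees of freedom. A call required an adjusted p under 0.05 (Benjamini-Hochberg over all genes tested). Correlations used log2 CPM with a prior count of 2. Alternatives were RLE factors, DESeq2, limma-voom, no low-count filter, a filter of 5 CPM in 2 libraries, the run of library numbers as a block, and leaving out each library. With 2 libraries a population, leaving 1 out assumes that the lone library varies like those of the other populations. Versions were edgeR 4.0.16, DESeq2 1.42.0 and limma 3.58.1 under R 4.3.3. Intervals of 3 counts cover counting error only.

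The markers, lists and motif letters were chosen with earlier results of these data known, so counts over them are descriptions. Values in every library are given for markers that reached 10 CPM in a library or were called in a comparison, and others by their range. From the other lists at most 4 called genes with the smallest adjusted p were to be named, as were the 10 genes outside the markers with the highest correlation with the markers' mean. Ptprc, Cd68, Cd79a, Lyz2, Nrp1, Angpt2, Gdf2, Stab2 and Ccl21a are outside this rule, as are Col3a1, Lum, Dpt, Mfap5, Pi16 and Dcn. All of these were picked once their values were known.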

Additional observations from a re-analysis of the deposited data

How the results depend on the processing

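Directions held better than calls. Under RLE factors, DESeq2, limma-voom, both filter settings, the run of library numbers as a block and each library left out, the median log2 fold change of the markers in THC stayed positive, at 1.43 to 1.68 against TBC, 2.44 to 2.59 against TLC, 1.32 to 3.63 against LC and 0.53 to 2.36 against BC. It ranged from -1.04 to 0.80 for TBC against BC, from -1.24 to 0.92 for TLC against LC and from -2.33 to 0.27 for LC against BC, so those signs depended on a single library. The number of markers called moved by more than 1.5 times under several settings, and the cause was not tested. Calls over all genes moved as well. In THC against TLC the main test called 300 genes higher, DESeq2 671, no low-count filter 992 and the replicate block 581. For THC against TBC (2 markers) it was 5 with DESeq2, 14 with no low-count filter and 1 with the stricter filter. For THC against TLC (5 markers) it was 19 with DESeq2, 19 with no low-count filter and 3 with the stricter filter. For THC against LC (10 markers) it was 16 with DESeq2 and 18 with limma-voom. For THC against BC (1 marker) it was 0 with RLE factors, 4 with DESeq2, 3 with limma-voom, 9 with no low-count filter and 0 with the stricter filter. For TLC against LC (0 markers) it was 1 with DESeq2 and 1 with no low-count filter. For LC against BC (2 markers) it was 1 with limma-voom, 6 with no low-count filter and 1 with the stricter filter, under which 31 markers were tested. With the replicate block by run of library numbers it was 13 for THC against TLC, 19 for THC against LC, 4 for THC against BC, 4 for LC against BC and 3 for THC against TBC. Over all genes the block called 2342 higher in THC against LC, 1652 against BC and 956 against TBC. For LC against BC it called 2826 higher and 3002 lower. Deviations from the population mean correlated between populations of the same run at -0.0124 to 0.421, and no label says that a run pairs libraries. Leaving out each library in turn gave 0 for THC against TBC, 0 to 2 for THC against TLC, 0 to 20 for THC against LC, 0 to 2 for THC against BC and 0 to 13 for LC against BC. Aplnr in THC against LC held its call under 9 of 10 alternatives, and Gimap8 in THC against BC under 4 of 10.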

Other observations

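The 10 genes outside the markers whose log2 CPM followed the markers' mean most closely over the 10 libraries were Rgs5, Prex2, Ebf1, Meox2, Sgip1, Csf2rb2, Aqp1, Zeb2, Adgrf5 and Fli1, with Pearson's r of 0.97 to 0.98. Of tested genes outside the markers 0.669% had r above 0.9. Rgs5, a regulator of G protein signalling typical of pericytes, led the list at 179 and 109.6 CPM in THC, 55.7 and 38.6 in TBC, 9.82 and 15.5 in TLC, 43.6 and 6.75 in LC, and 103 and 17.4 in BC. Aqp1, a water channel of capillary endothelium, had 162 and 147 CPM in THC, 32.8 and 53.5 in TBC, 21.6 and 25.8 in TLC, 82.9 and 13.4 in LC, and 122 and 28.1 in BC. Fli1, an ETS factor of endothelial and blood cells, had 25.96 and 21.2 CPM in THC, 6.79 and 7.403 in TBC, 2.46 and 3.46 in TLC, 6.83 and 1.65 in LC, and 28.2 and 5.02 in BC. All 3 were high in THC, LC replicate 1 and BC replicate 1 relative to the second LC and BC libraries, as the markers were. Rgs5 stood on the pericyte list, and Aqp1 and Fli1 on the second endothelial list.

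Of 6 genes that mark lymphatic vessels 5 were tested, of which 0 rose in THC against TBC by edgeR's quasi-likelihood test, 1 against TLC, 2 against LC and 1 against BC, and none fell. Against TBC 1 was higher and 1 lower at an unadjusted p under 0.05. The genes did not share a direction. Reln, a secreted glycoprotein, had 50.7 and 149.9 CPM in THC, 243 and 469 in TBC, 8.07 and 6.097 in TLC, 1.84 and 0.718 in LC, and 80.4 and 134 in BC. Pdpn, the membrane glycoprotein podoplanin, had 125 and 52.6 CPM in THC, 106 and 104 in TBC, 38.9 and 12.6 in TLC, 0.976 and 0.144 in LC, and 55.5 and 52.5 in BC. Both were high in THC, TBC and BC and low in LC. Prox1, the transcription factor that specifies lymphatic endothelium, had 10.8 and 13.2 CPM in THC, 4.58 and 3.15 in TBC, 17.02 and 10.2 in TLC, 34.4 and 24.2 in LC, and 4.51 and 2.13 in BC and was highest in LC. Prox1 had a log2 fold change of 1.94 ± 0.44 (SE), adjusted p = 0.023 in THC against BC by edgeR's quasi-likelihood test, and one of 3.21 ± 0.44 (SE), adjusted p = 0.00029 in LC against BC. Stab2, a scavenger receptor, had 3.099 and 3.71 CPM in THC, 3.79 and 3.15 in TBC, 3.16 and 5.73 in TLC, 6.29 and 2.7997 in LC, and 10.4 and 2.38 in BC and passed in no comparison. Ccl21a had 0 counts in all 10 libraries.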
